A study of Mus musculus with 4 samples.

Results

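The genes described are those of bone morphogenetic protein (BMP) signalling in mouse dorsal root ganglia, the clusters of sensory neuron cell bodies beside the spinal cord. The genes were chosen by name, with the FPKM differences between mutants and wild types in these same samples already known, so their values in that comparison are a description and carry no test. The list held 10 genes: the ligands Bmp4, Bmp5, Bmp6 and Bmp7, the receptors Bmpr1a, Bmpr1b and Bmpr2, the antagonists Nog and Grem1, and the target gene Id1. Of these, 8 had values, of 14405 genes in the table, and all 8 passed the filter on low values. Bmpr1b and Grem1 were not analysed here.

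RNA was sequenced from whole ganglia of mice aged 10 weeks on a background labelled as mixed. The 2 mutant samples had the genotype Prdm12-/Fl; AvilCreERT2/+, that is, a loxP-flanked Prdm12 allele over a null allele of this transcription factor gene of the nociceptor lineage, with Cre fused to a tamoxifen-responsive oestrogen receptor and driven by Avil, a gene of sensory neurons. The 2 wild type samples are labelled only as wild type. The labels give neither the time and dose of induction nor whether a sample pools several animals. Since the Avil promoter acts mainly in neurons, cells of the coverings, glia and vessels of the ganglion would carry the null allele but were not the cells the Cre was aimed at.

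BMPs are secreted dimers of the TGF-beta superfamily. They bring type I receptors, such as the products of Bmpr1a and Bmpr1b, together with type II receptors, such as that of Bmpr2, and the type I kinase then phosphorylates SMAD1, SMAD5 and SMAD9, which enter the nucleus with SMAD4. The Id genes, which encode inhibitors of basic helix-loop-helix transcription factors, are direct targets, and noggin and gremlin bind the ligands outside the cell and keep them from the receptors. In the embryo, BMPs from the dorsal neural tube act on the neural crest, from which sensory ganglia form, and BMPs of the meninges are known in the developing brain.

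All 4 ligands had lower group means in the mutants, and those of Bmp4, Bmp6 and Bmp7 were 50.9%, 40.7% and 54.0% of wild type. The start regions of Bmp6, Bmp4 and Bmp5 are shown first, to set 2 ligand genes whose samples separated by genotype beside 1 whose samples overlapped. The sequences run from 250 bases before to 50 bases after the start and come from RefSeq on GRCm38.p6, the assembly of mm10. Of the 10 genes, 7 had an entry in that table. Bmp7, whose samples also separated by genotype, was not among them, so its start region could not be set beside these. Capitals mark every match to the GC box GGGCGG and to the E-box CANNTG, read on both strands.
Bmp6, chr13:38345466-38345765, plus strand: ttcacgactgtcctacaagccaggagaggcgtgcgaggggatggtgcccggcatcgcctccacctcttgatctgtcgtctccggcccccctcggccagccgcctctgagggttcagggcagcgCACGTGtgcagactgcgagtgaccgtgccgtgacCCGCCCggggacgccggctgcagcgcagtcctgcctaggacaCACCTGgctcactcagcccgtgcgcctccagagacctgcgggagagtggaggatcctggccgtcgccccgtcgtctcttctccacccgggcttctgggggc
Bmp4, chr14:46390620-46390919, minus strand: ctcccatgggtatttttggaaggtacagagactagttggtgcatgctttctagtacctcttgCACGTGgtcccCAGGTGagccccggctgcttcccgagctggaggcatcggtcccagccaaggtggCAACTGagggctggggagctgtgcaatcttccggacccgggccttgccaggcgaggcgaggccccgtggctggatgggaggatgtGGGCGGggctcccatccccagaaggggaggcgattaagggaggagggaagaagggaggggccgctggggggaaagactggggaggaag
Bmp5, chr9:75775115-75775414, plus strand: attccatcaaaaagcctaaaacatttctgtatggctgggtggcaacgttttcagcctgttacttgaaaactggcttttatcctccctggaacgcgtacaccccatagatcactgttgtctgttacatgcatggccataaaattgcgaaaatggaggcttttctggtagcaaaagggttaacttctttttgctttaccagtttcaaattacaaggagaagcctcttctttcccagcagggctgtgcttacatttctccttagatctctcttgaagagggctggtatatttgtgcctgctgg

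The Bmp6 region held 27 CpG dinucleotides and 69.3% G and C, the Bmp4 region 12 and 64.0%, and the Bmp5 region 4 and 43.3%. Over all 32817 regions of the same length, the medians were 7 CpG and 52.7%. Bmp6 and Bmp4 each had 1 GC box, which begins 93 and 38 bases before the start, and Bmp5 had 0. A GC box occurs in 35.6% of all regions. E-boxes numbered 2 in the Bmp6 region, 3 in Bmp4 and 0 in Bmp5, and 72.3% of all regions hold at least 1. The SMAD palindrome GTCTAGAC, found in 0.213% of all regions, had 0 matches in each of these 3, and TATAAA, found in 13.6%, also had 0. The receptor gene Bmpr1a had 48 CpG, 79.3% G and C, 4 GC boxes and 0 E-boxes in its region, and its samples overlapped between the groups. Bmpr2, whose samples did not overlap before rescaling, had 23 CpG, 59.3% G and C, 1 GC box and 0 E-boxes. The regions shown were picked by the group values and are few, so nothing is read from their contrast. A match is a run of letters in this window and shows no binding.

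Prdm12 itself was at 1.05 and 1.495 FPKM in mutant 1 and 2, against 7.58 and 10.7 FPKM in wild type 1 and 2, where FPKM is a fragment count scaled to transcript length and library size. That agrees in direction with the labels. All 10 sensory neuron markers on the list had values above 0 in every sample, among them Tubb3 and Scn10a. The libraries did not group by genotype: Pearson's r over genes was 0.988 between mutant 1 and wild type 1, against 0.971 between the 2 mutants. Mutant 2 stood apart in tissue content, with summed skeletal muscle markers of 3458 FPKM, against 116 FPKM in mutant 1 and 244 and 1831 FPKM in wild type 1 and 2. Its summed adipocyte markers were 2335 FPKM and its summed myelin markers 20906 FPKM, above the other 3 libraries in both. Wild type 2 also differed from the other 3 libraries in sex-linked genes, with Xist at 21.1 FPKM and at most 0.0295 FPKM elsewhere. For the BMP genes and the pathway genes that changed most without mutant 2, values without it are given beside the results.

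Bmp6, a ligand best known for its part in iron balance and also made by neurons and mesenchyme, had the largest difference of the 8 genes. Its level was 11.2 and 8.09 FPKM in mutant 1 and 2, against 25.2 and 22.1 FPKM in wild type 1 and 2. The groups did not overlap. The means were 9.63 ± 2.18 FPKM in the mutants and 23.7 ± 2.15 FPKM in wild type (SD, n = 2 each), so that the mutant mean was 40.7% of wild type. On the log2(FPKM + 1) scale the difference was -1.23 (standard error, SE, 0.195), and 76 of the 14040 genes tested had a lower value. The gene spans chr13:38345107-38500302 on the plus strand of mm10 and overlaps exons of Txndc5 on the other strand. Txndc5 was at 83.8 and 76.1 FPKM in the mutants and 94.6 and 87.0 FPKM in wild type, and the labels do not say whether counting used strand.

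Bmp4, a ligand that patterns dorsal tissues in the embryo, was at 12.6 and 10.99 FPKM in mutant 1 and 2, against 25.0 and 21.4 FPKM in wild type 1 and 2. No mutant sample reached the lower wild type sample. Its mean was 11.8 ± 1.14 FPKM in the mutants and 23.2 ± 2.56 FPKM in wild type (SD, n = 2 each), 50.9% of wild type, with a log2 difference of -0.92 (SE 0.162). The gene lies on the minus strand at chr14:46383520-46390669, and the overlapping gene Gm15217 was at most 1.23 FPKM in any sample.

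Bmp7, which can pair with Bmp4 in heterodimers, was the most abundant ligand in both groups. It stood at 16.1 and 15.9 FPKM in mutant 1 and 2 and at 31.8 and 27.5 FPKM in wild type 1 and 2, again without overlap. The mutant samples were closer to each other than for any other ligand, and the mean of 16.0 ± 0.152 FPKM was 54.0% of the wild type mean of 29.6 ± 3.02 FPKM (SD, n = 2 each). Its log2 difference was -0.85 (SE 0.151). Bmp7 lies on the minus strand at chr2:172868012-172940321.

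Bmp5, the closest relative of Bmp6 and Bmp7 among the ligands, was the exception in its samples. It was at 11.2 and 6.82 FPKM in mutant 1 and 2, against 14.9 and 11.1 FPKM in wild type 1 and 2. Mutant 1 lay just above wild type 2, so the groups overlapped. The means were 9.02 ± 3.11 FPKM in the mutants and 13.0 ± 2.66 FPKM in wild type (SD, n = 2 each), and the log2 difference was -0.50 (SE 0.265). Bmp5 lies on the plus strand at chr9:75775364-75900310.

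**Figure D1:**
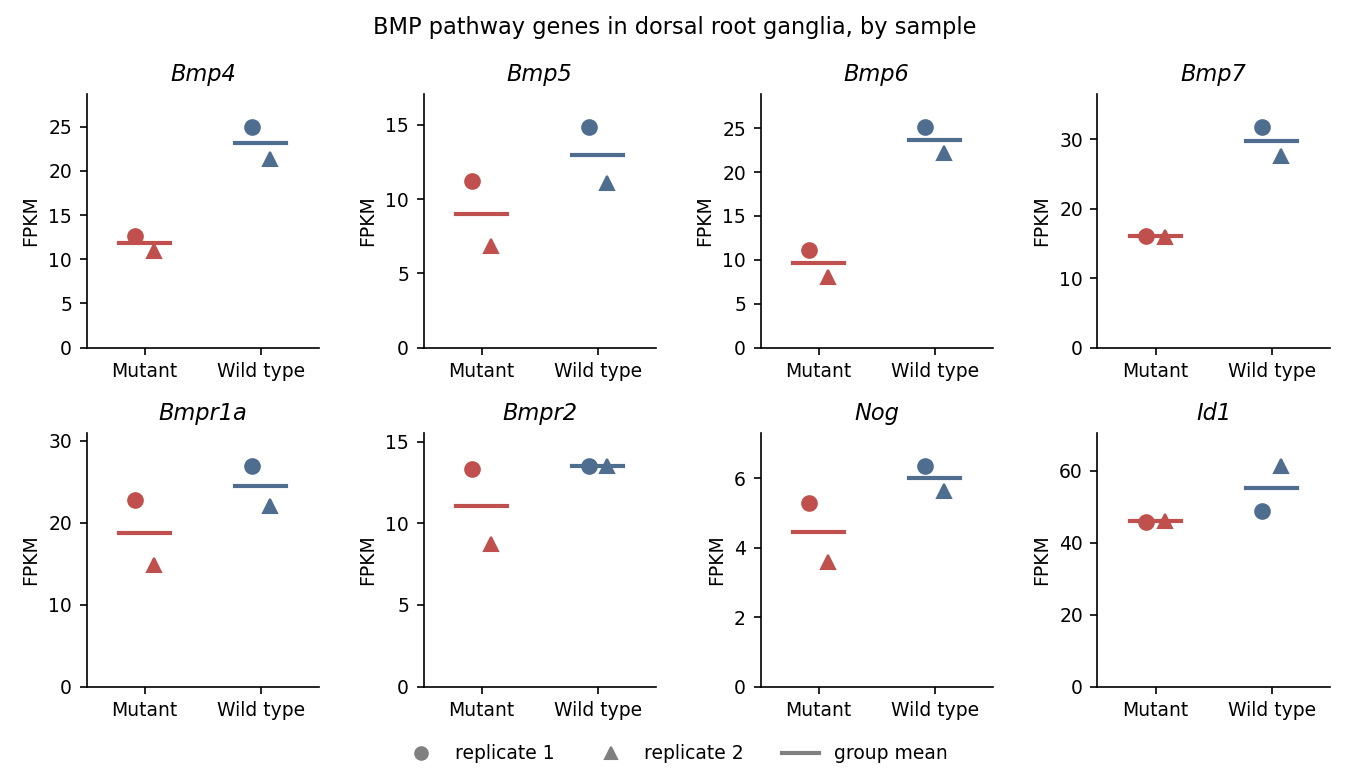
FPKM of the 8 BMP genes in each sample, on axes that start at 0. Circles are replicate 1 and triangles replicate 2, mutant samples stand on the left of each panel in red and wild type samples on the right in blue, and lines are group means of 2 samples. Bmp4, Bmp6 and Bmp7 show a wide gap between the groups, with Bmp6 at 11.2 and 8.09 FPKM in the mutants and 25.2 and 22.1 FPKM in wild type, while Bmp5 and Bmpr1a overlap.

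The receptor genes differed less. Bmpr1a, the broadly expressed type I receptor, was at 22.8 and 14.8 FPKM in mutant 1 and 2, against 27.0 and 22.1 FPKM in wild type 1 and 2. Mutant 1 lay above wild type 2, and the log2 difference was -0.39 (SE 0.241). Bmpr2, the type II receptor best known from pulmonary hypertension, was at 13.3 and 8.75 FPKM in the mutants and at 13.5 FPKM in both wild types. Mutant 1 lay just below the lower wild type sample, and after either rescaling of the libraries it lay above it, so that mutant 2 alone stood apart; the log2 difference was -0.29 (SE 0.217). Bmpr1a lies at chr14:34410734-34503341 on the minus strand and Bmpr2 at chr1:59763400-59879014 on the plus strand.

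Nog, which encodes the BMP antagonist noggin, had the lowest level of the 8 genes. It was at 5.29 and 3.60 FPKM in mutant 1 and 2, against 6.36 and 5.64 FPKM in wild type 1 and 2, without overlap but with mutant 1 close to wild type 2. Its log2 difference was -0.38 (SE 0.200). The target gene Id1 was the most abundant, at 45.7 and 46.2 FPKM in mutant 1 and 2 and at 48.8 and 61.5 FPKM in wild type 1 and 2. Both mutant samples lay below both wild types, the wild types differed from each other by more than the nearest mutant and wild type samples did, and the log2 difference was -0.25 (SE 0.174). Nog lies at chr11:89300638-89302332 on the minus strand and Id1 at chr2:152736251-152737410 on the plus strand.

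Over the 8 genes, 6 had both mutants below both wild types, 0 had both above and 2 overlapped. Over all 14040 genes tested, 19.6% were lower in this way and 12.5% higher. The median log2 difference of the 8 genes was -0.45, beside -0.005 over all genes tested. With 1 library left out, 8 of the 8 genes were lower in this way without mutant 1, 6 without mutant 2, 6 without wild type 1 and 8 without wild type 2. Over all genes the lower and higher shares were then 36.5% and 40.6% without mutant 1, 37.2% and 23.5% without mutant 2, 36.9% and 22.2% without wild type 1, and 32.8% and 35.5% without wild type 2. Since the genes were listed with this comparison known, nothing is read from these figures. Across the whole table, limma called 0 of 14040 genes, 0%, at an adjusted p under 0.05. Without adjustment, 422 genes were lower and 190 higher at p under 0.05. The authors' deposited table of 150 changed genes lists 1 of the 8, Bmp6, with a log2 fold change of -1.30 and q = 0.00742. Of its 150 genes, 129 were lower in the mutants. Its label sets a cutoff of 1 on the size of the log2 fold change, besides a limit on q. By group means, the rest of the 8 genes were at 50.9% (Bmp4) to 83.4% (Id1) of wild type, short of that cutoff. Their absence from the authors' table therefore says nothing about their q.

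The library mutant 2 bore on the genes to different extents. Without it, with mutant 1 alone for the mutants, the log2 difference was -0.83 for Bmp4, -1.02 for Bmp6 and -0.84 for Bmp7. For the other genes it came to -0.18 for Bmp5, -0.10 for Bmpr1a, -0.02 for Bmpr2, -0.15 for Nog and -0.26 for Id1. The Id1 difference moved with another library, wild type 2, which also differed in sex-linked genes, and was -0.08 without wild type 2. Between the mutants, mutant 2 had 98.7% of the Bmp7 level of mutant 1 and 87.2% of its Bmp4 level, 72.4% of its Bmp6 and 60.8% of its Bmp5, beside 65.1% of its Bmpr1a and 65.5% of its Bmpr2. Thus Bmp4, Bmp6 and Bmp7 were low in each mutant library, and the lower mean of the receptors came mostly from 1 library.

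Ratios within a library do not depend on how the libraries were scaled. The summed level of the 4 ligands was 51.1 and 41.8 FPKM in mutant 1 and 2, against 96.8 and 82.2 FPKM in wild type 1 and 2, and the summed level of Bmpr1a and Bmpr2 was 36.1 and 23.6 FPKM, against 40.5 and 35.6 FPKM. The ratio of ligands to receptors, per length, was 1.42 and 1.77 in the mutants and 2.39 and 2.31 in the wild types. It was lower in both mutant samples, and the difference of its log2 was -0.57. Leaving out mutant 2 took that difference to -0.73, and leaving out mutant 1 took it to -0.41. The ligand sum was 9.66 and 11.6 times Nog in the mutants and 15.2 and 14.6 times Nog in the wild types, so ligands were lower relative to noggin as well. Id1 was 0.893 and 1.10 of the ligand sum in the mutants and 0.503 and 0.748 of it in the wild types.

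**Figure D2:**
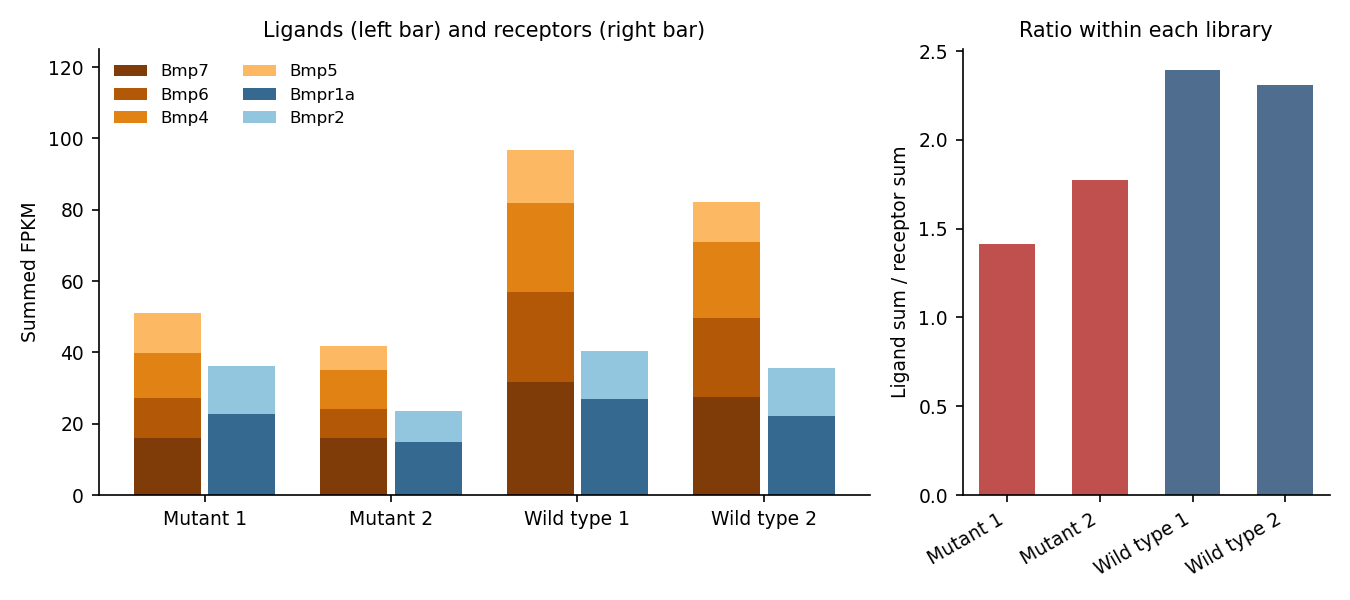
Left, FPKM of the ligands Bmp7, Bmp6, Bmp4 and Bmp5 stacked in the first bar and of the receptors Bmpr1a and Bmpr2 in the second bar of each sample. Right, the ratio of the ligand sum to the receptor sum in each library, 1.42 and 1.77 in the mutants (red) and 2.39 and 2.31 in the wild types (blue).

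The ligands did not keep the same shares of their sum. Bmp6 made up 21.9% and 19.3% of the ligand sum in mutant 1 and 2, against 26.0% and 26.9% in wild type 1 and 2, and Bmp5 made up 21.95% and 16.3%, against 15.4% and 13.5%. Bmp4 held 24.7% and 26.3% in the mutants and 25.8% and 26.0% in the wild types, and its groups overlapped. The share of Bmp7 was 31.5% and 38.1% in the mutants and 32.8% and 33.5% in the wild types, also with overlap. By level, the order in the mutants was Id1, Bmpr1a, Bmp7, Bmp4, Bmpr2, Bmp6, Bmp5 and Nog, where the samples of Bmpr1a and Bmp7 overlapped, as did each neighbouring pair from Bmp4 to Bmp5. In wild type it was Id1, Bmp7, Bmpr1a, Bmp6, Bmp4, Bmpr2, Bmp5 and Nog, and the overlapping neighbours were Bmpr1a with Bmp6, Bmp6 with Bmp4, and Bmpr2 with Bmp5. Bmp7 thus stood above both receptors in wild type and within the range of Bmpr1a in the mutants.

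Other genes of the pathway were taken from 5 lists of 67 genes, of which 50 were tested. In either direction, limma called 0 of the 50 at an adjusted p under 0.05, the lowest adjusted p among them being 0.699. Since 0 of all 14040 genes tested passed, Prdm12 included, the count of 0 does not show that these genes were unchanged. Without adjustment, 5 of the 50 were lower at p under 0.05 and 0 higher, which is 10.0%, where 3.01% of all genes tested were lower and 1.35% higher. Both mutants were lower than both wild types for 14 of the 50, or 28.0%, and higher for 2, or 4.0%, where 19.6% of all genes tested were lower and 12.5% higher, and the median log2 difference was -0.16. Rescaling the libraries gave 12 or 13 lower. Leaving out mutant 1 gave 34 in place of 14, leaving out wild type 2 gave 30, and leaving out mutant 2 or wild type 1 gave 18, where 36.5%, 32.8%, 37.2% and 36.9% of all genes were lower; at unadjusted p under 0.05 the 5 lower genes became 10 without mutant 1, 3 without mutant 2 and 2 without wild type 1.

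Extracellular antagonists and modulators held the largest differences. Of 16 tested, 4 were lower without overlap and 1 higher, beside 19.6% and 12.5% of all genes tested. The median log2 difference was -0.16. Crim1, which encodes a membrane protein that binds BMPs, was at 10.1 and 6.19 FPKM in mutant 1 and 2, against 19.2 and 15.7 FPKM in wild type 1 and 2. Its groups did not overlap, the mutant mean was 46.7% of wild type, and its log2 difference was -1.04 (SE 0.247; limma unadjusted p = 0.00697, adjusted p = 0.699). Twsg1, whose product twisted gastrulation binds BMPs together with chordin, was at 39.3 and 20.3 FPKM in the mutants and 63.5 and 44.7 FPKM in the wild types (log2 difference -0.89, limma adjusted p = 0.994). Chrd, the gene of the antagonist chordin, was at 2.82 and 1.95 FPKM in the mutants and 5.15 and 3.42 FPKM in the wild types (log2 difference -0.64, limma adjusted p = 0.994). Without mutant 2 the log2 differences were -0.73 for Crim1, -0.43 for Twsg1, -0.45 for Chrd and -0.18 for Nbl1. The abundant secreted genes of this list differed less: Nbl1, of the DAN family of antagonists, averaged 77.4% of wild type with a log2 difference of -0.38, and Fstl1, a follistatin-like gene, overlapped between the groups with a log2 difference of 0.03 that was -0.07 after quantile normalization.

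Among SMADs and intracellular regulators, 5 of 12 were lower without overlap and 1 higher, beside 19.6% and 12.5% of all genes tested. The median log2 difference was -0.26. Smad6, an inhibitory SMAD that BMP signalling itself induces, was at 3.44 and 3.25 FPKM in mutant 1 and 2, against 6.74 and 4.85 FPKM in wild type 1 and 2 (log2 difference -0.63, limma unadjusted p = 0.0173, adjusted p = 0.909). The mutants were alike and both lay below the lower wild type. Skil, a SMAD co-repressor gene, had a log2 difference of -0.54, Smad7, the other inhibitory SMAD gene, of -0.33 and Smad4, the common partner, of -0.30, each lower in both mutants. Without mutant 2 these were -0.27 for Skil, -0.11 for Smad7 and -0.21 for Smad4. Ski, a co-repressor gene, overlapped, with a log2 difference of -0.15 that was 0.01 without mutant 2.

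Of the other target genes on the list, 1 of 6 was lower without overlap, beside 19.6% of all genes tested, and the median was -0.05. Id3 was at 184 and 156 FPKM in mutant 1 and 2, against 185 and 168 FPKM in wild type 1 and 2, and Id2 at 55.4 and 40.1 FPKM, against 53.0 and 57.9 FPKM. The 1 without overlap was Atoh8, a basic helix-loop-helix gene, at 2.54 and 2.65 FPKM in the mutants and 3.46 and 3.55 FPKM in the wild types (log2 difference -0.33, limma adjusted p = 0.994).

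Of the other type I and II receptors and co-receptors, 3 of 10 were lower without overlap and 0 higher, beside 19.6% and 12.5% of all genes tested. The median log2 difference was -0.10. The 3 lower genes were Neo1, the gene of the repulsive guidance receptor neogenin, with a log2 difference of -0.46, Tgfbr3, which encodes betaglycan, with -0.35, and Rgmb, a BMP co-receptor gene known from sensory ganglia, with -0.16. Without mutant 2, Neo1 was at -0.26 and Tgfbr3 at -0.10. Rgmb was the most abundant gene of this list, at 28.4 and 29.9 FPKM in the mutants and 34.6 and 30.8 FPKM in the wild types. Of the other BMP and GDF ligands, 1 of 6 tested was lower without overlap, beside 19.6% of all genes tested, and the median was -0.09. That gene was Bmp15, at 1.14 and 1.25 FPKM in the mutants and 2.12 and 2.36 FPKM in the wild types (log2 difference -0.56, limma adjusted p = 0.892). Gdf10 and Gdf11 overlapped between the groups, with log2 differences of 0.25 and 0.03. The sum of Bmp4, Bmp5, Bmp6 and Bmp7 was 92.5% of all transcripts of Bmp2, Bmp3, Bmp4, Bmp5, Bmp6, Bmp7 and Bmp15 in both mutants, and 95.2% and 94.0% in wild type 1 and 2.

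**Figure D3:**
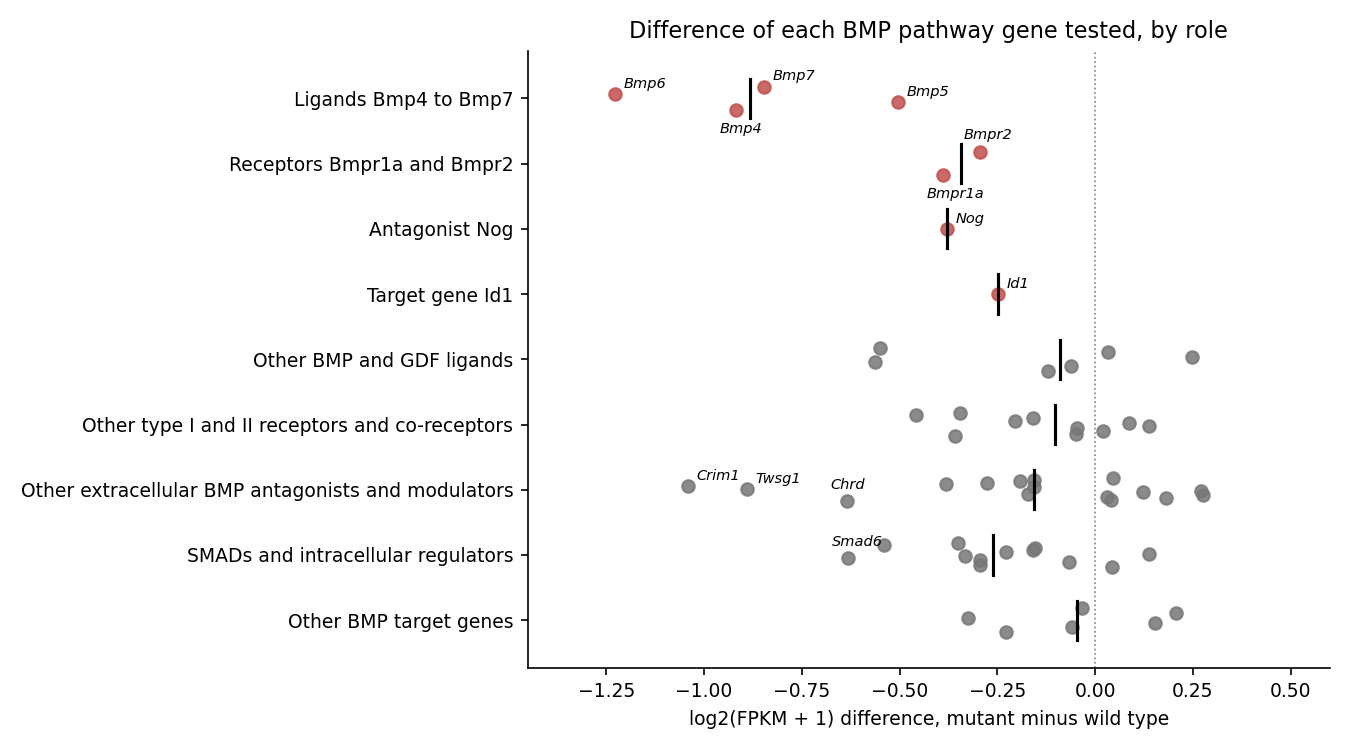
Difference in log2(FPKM + 1), mutant minus wild type, of each BMP pathway gene tested. Each point is 1 gene, red for the genes described first and grey for the other pathway lists, and black bars are list medians. The 4 ligands lie between -1.23 and -0.50, Crim1, Twsg1 and Chrd are the lowest of the grey points.

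Markers of other cell types were set beside the ligands. Ganglia are bulk tissue, so fewer cells of a type and less RNA per cell cannot be told apart. In the list of the meninges and fibroblasts, cells of the coverings of the ganglion, 9 of the 15 genes had both mutants below both wild types, 0 had both above, beside 19.6% and 12.5% of all genes tested, and the median log2 difference was -0.92. Of the 15, 7 are among the authors' changed genes from these same samples. The list was also chosen with earlier results known, so nothing is read from its count or median. By its median the list lay at -0.02 in mutant 1 and -0.87 in mutant 2, relative to each gene's mean over the 4 samples, where the 4 ligands lay at -0.39 and -0.56. Its summed level was 9140 and 6170 FPKM in mutant 1 and 2, against 19364 and 18058 FPKM in wild type 1 and 2, and none of the 15 was at 0 in any sample. Most of the wild type sum was a single gene, Ptgds, so the sum says little about the rest of the list. Ptgds was at 3201 and 3025 FPKM in mutant 1 and 2, against 13098.5 and 13054.9 FPKM in wild type 1 and 2. Within the list, the meningeal GABA transporter gene Slc6a13 was at 32.1 and 26.7 FPKM in the mutants and 77.9 and 67.5 FPKM in the wild types, and the retinoic acid synthesis gene Aldh1a2 at 27.5 and 18.8 FPKM, against 99.5 and 75.7 FPKM. General fibroblast genes overlapped, such as Col1a2 at 769 and 411 FPKM in the mutants and 802 and 426 FPKM in the wild types. The list median of -0.02 in mutant 1 thus mixes such genes with genes low in both mutants, such as Ptgds, Slc6a13 and Aldh1a2.

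Set against Slc6a13 in each library, Bmp6 was 0.348 and 0.303 of its level in mutant 1 and 2 and 0.323 and 0.328 in wild type 1 and 2, so this ratio overlapped between the groups. The mutant mean of Slc6a13 was itself 40.5% of wild type, near the 40.7% of Bmp6. Over the list of Slc6a13 this figure ran from 21.5% for Slc22a6 to 110.6% for Col1a1, so such a ratio depends on the gene chosen. Bmp4 was 0.393 and 0.411 of Slc6a13 in the mutants and 0.321 and 0.317 in the wild types, and Bmp7 0.503 and 0.596, against 0.408 in both wild types. The ligand sum was 1.59 and 1.57 times Slc6a13 in the mutants and 1.24 and 1.22 times Slc6a13 in the wild types, higher in both mutants. Relative to the mesenchymal transcription factor gene Foxc1, the ligand sum was 2.29 and 3.42 in the mutants and 2.91 and 2.64 in the wild types, again with overlap, while Bmp6 alone was 0.499 and 0.662 of Foxc1 in the mutants and 0.755 and 0.712 in the wild types, lower in both mutants. Relative to the fibroblast gene Dcn the ligand sum was lower in both mutants, at 0.0138 and 0.0220, against 0.0280 and 0.0245 in the wild types. The part of meningeal cell content in the ligand levels was not tested.

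The remaining lists followed the libraries in other ways. Their counts stand beside 19.6% of all genes tested lower in both mutants and 12.5% higher. Of 10 sensory neuron markers, 1 was higher in both mutants and 0 lower, with a median log2 difference of 0.22. Myelin markers were higher in both mutants for 6 of 10, with a summed level of 10007 and 20906 FPKM in mutant 1 and 2, against 10166 and 8081 FPKM in wild type 1 and 2. Endothelial markers, relevant because vessels respond to BMPs, were lower in both mutants for 2 of 8, with a median of -0.08, and their sums ran from 166 to 172 FPKM in the mutants and from 172 to 179 FPKM in wild type. All 5 tested erythrocyte markers were higher in both mutants, with a median of 0.83. Of 6 satellite glia markers, 3 were higher in both mutants and 1 lower. Among 5 tested bone and cartilage markers, 2 were higher, Bglap and Bglap2, and 1 lower, Comp. Mural cell and macrophage markers were each lower in both mutants for 1 of 7 and higher for 0. The part of these cell types in the BMP values was not tested.

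**Figure D4:**
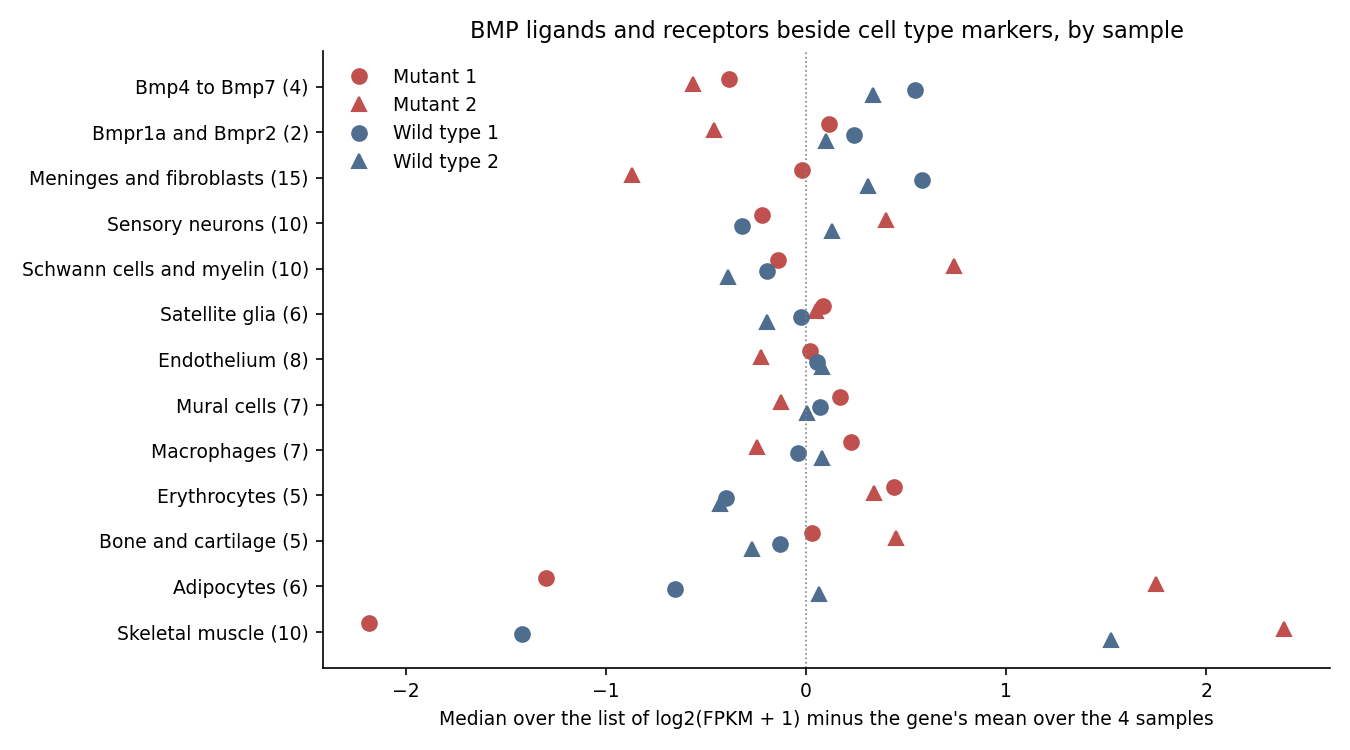
Median over each gene list of the log2(FPKM + 1) value minus the gene's own mean over the 4 samples, with the number of genes tested in brackets. Red points are mutants and blue points wild types, with circles for replicate 1 and triangles for replicate 2. Bmp4 to Bmp7 lie at -0.39 and -0.56 in mutant 1 and 2 and at 0.55 and 0.34 in wild type 1 and 2. The meningeal and fibroblast list lies at -0.02 and -0.87 in the mutants and 0.58 and 0.31 in the wild types. Its median mixes genes low in both mutants, such as Ptgds, with general fibroblast genes that overlapped. Muscle and adipocyte markers separate replicates more than groups.

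For the gene with the largest difference in each role, the nearest genes across the 4 samples were found by Euclidean distance between centred log2(FPKM + 1) values, over 9481 other genes of at least 5 FPKM. Nearest to Bmp6 were Aifm3 at a distance of 0.0815, Isyna1, the myo-inositol phosphate synthase gene, at 0.128, and Abcb1a, the P-glycoprotein gene of barrier endothelium, at 0.128. Aifm3 was at 7.46 and 5.71 FPKM in the mutants and 18.6 and 15.8 FPKM in the wild types. Nearest to Bmpr1a were Lin7c, the laminin gene Lamb2 and Gnpnat1, at 0.0301 to 0.0433, and nearest to Nog were Zmpste24, Sgk3 and Nbl1, at 0.0225 to 0.0339. Postn, the periostin gene, was nearest to Id1 at 0.0219. With 4 samples and this many genes, small distances arise for many pairs.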

How the data were processed

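Bulk RNA-seq of dorsal root ganglia was used from 2 mutant and 2 wild type samples, grouped and numbered by their titles. The authors deposited FPKM values per gene, and all 14405 genes in their table reach at least 1 FPKM in 1 or more samples, tested on the values. The authors also deposited a list of 150 changed genes with group FPKM, a log2 fold change and a p-value and q-value for each, in Cuffdiff's column format per the file headers. CASAVA, TopHat2 2.1.2, Cufflinks 2.2.1 and mm10 are named in the submitters' processing notes; they come with no roles, and the scaling between libraries was not given in the sources used here. FPKM totals ran from 620018 to 686830 per sample; without read counts, the depth behind them is unknown and intervals for counting error were not computed.

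Values were analysed as log2(FPKM + 1) with limma 3.58.1 (R 4.3.3), using a mean-dependent variance prior, over the 14040 genes averaging 1 FPKM or more in mutants or wild types, with Benjamini-Hochberg adjustment and a threshold of 0.05. Differences are mutant minus wild type on that scale, which understates changes of low genes. Residual degrees of freedom were 2, with 3.44 added by the prior. An exact two-sided permutation test of 2 against 2 cannot go below 0.333. Nothing in the labels says that samples came from separate animals, so the p-values reflect only how far these libraries differ, possibly for technical reasons. The fit was also run on simulated data in which each gene varied independently, without effects shared across a library. Such data lack the differences in tissue content seen here, so nothing is read from that run.

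The genes, lists and tests were chosen with earlier results of these data known. Genes named from the other pathway lists are the 3 with the largest difference without overlap and the 2 most abundant of each list. Coordinates are from GENCODE M21 on GRCm38, and start regions from RefSeq on GRCm38.p6. The alternatives were another pseudocount, 2 other filters, 2 rescalings, a replicate block, no variance trend and each sample left out.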

Additional observations from a re-analysis of the deposited data

How the results depend on the processing

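The log2 differences of the 8 BMP genes stayed below 0 under every alternative run. With each sample left out they ran from -1.44 to -1.02 for Bmp6, from -1.03 to -0.81 for Bmp4, from -0.95 to -0.74 for Bmp7, from -0.83 to -0.18 for Bmp5, from -0.68 to -0.10 for Bmpr1a, from -0.57 to -0.02 for Bmpr2, from -0.60 to -0.15 for Nog and from -0.41 to -0.08 (without wild type 2) for Id1. The lone sample of a group is then assumed to vary like the others. The number of these genes lower in every mutant than in every wild type sample was 6, was 5 after either rescaling, where Bmpr2 came to overlap, and ran from 6 to 8 with a sample left out, where 32.8% to 37.2% of all genes were lower in this way. For the other pathway genes it was 14 of 50, was 12 after rescaling by median ratios and 13 after quantile normalization, and ran from 18 to 34 with a sample left out (34 without mutant 1, 30 without wild type 2). The mutant minus wild type difference in the log2 ratio of ligands to receptors ran from -0.73 to -0.41.

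The limma count of 0 genes past an adjusted p of 0.05 held for another pseudocount, both filters, both rescalings and no variance trend, and ran from 0 to 5 with a sample left out, the 5 being without wild type 1. The count of other pathway genes past it was 0 under every alternative. With a replicate block 61 genes passed, 0 of them other pathway genes; the labels number the samples but do not pair them, and the difference between replicate 2 and replicate 1 correlated between the groups at 0.48 over genes. At an unadjusted p under 0.05 the count of lower pathway genes, 5, was 3 after either rescaling and 10 without mutant 1. The sign turned for genes near 0: with each sample left out Gdf10 ran from -0.00678 (without wild type 1) to 0.504, Gdf11 from -0.108 (without mutant 2; -0.0433 without wild type 2) to 0.172, Fstl1 from -0.0408 (without mutant 2) to 0.0998, Ski from -0.352 to 0.0471 (without wild type 1; 0.00900 without mutant 2) and Id3 from -0.176 to 0.0598 (without mutant 2; 0.0102 without wild type 1). Fstl1 was -0.0687 after quantile normalization. The cause was not tested. With 2 samples a group and unknown depth, little can be read from the small differences of the receptors, Nog and Id1. Those of the receptors and Nog were smallest without mutant 2, and that of Id1 without wild type 2.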
